A study of Gallus gallus with 20 samples.

Results

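Scales of chicken embryos that carried a Zic1-deltaC construct were set against scales that carried the green fluorescent protein (GFP), by taking the 3 libraries labelled Zic1-deltaC and the 2 labelled GFP control, 5 of 20 in the series. The tissue was scutate scale, the row of broad plates along the front of a bird's lower leg, from White Leghorn embryos on embryonic day 16. Both groups received RCAS, an avian retrovirus used to misexpress genes, on embryonic day 3, either as virus injected into the amniotic cavity and hind limb or as electroporated plasmid. The labels do not say which route, how many embryos or how large an infected area stood behind a library, nor whether replicates were separate embryos, and the p-values then cover only the spread between these samples, which may be technical. Zic1 is a zinc finger transcription factor of the early neural plate and other embryonic tissues, and the labels do not say what the deltaC form lacks. The other 7 groups were scales with Grem1, Spry2, Sox2, Sox18 or beta-catenin in RCAS, scales of embryos given retinoic acid (RA), and normal feather from dorsal skin of the same embryonic day.

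Bird scales, claws and feathers owe their hardness to beta-keratins, small proteins encoded by large clusters of near-identical genes, which are laid down on top of the alpha-keratin filaments (KRT genes) that all vertebrate epidermis makes. The clusters hold families that are named after the appendage in which each was described: claw, scale, feather (FK), feather-like (FL) and keratinocyte (Ktn) keratins. Each layer of the epidermis has its own alpha-keratins, so a set of keratin levels describes both the kind of appendage and how far its cells have matured. Gene names in the files give the chromosome and the family, as in Chr27_FK1 for a feather keratin named for chromosome 27. The files named 180 keratins, and the other 16110 rows carried Ensembl identifiers that neither file pairs with a gene name.

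Values are RPKM, reads corrected for gene length and for library size, so levels can be compared between genes. RPKM is relative, and in bulk tissue fewer cells of a type and less RNA per cell cannot be told apart. Read totals were not analysed here, so depth is unknown. The RPKM total was 377156 to 393960 in the Zic1-deltaC libraries, against 433968 and 434632 in the GFP libraries, and between 10814 and 10946 rows reached 1 RPKM in each of the 5. Across genes, which are no independent replicates, Pearson's r of the log2(RPKM + 1) values was 0.993 to 0.996 among Zic1-deltaC libraries and 0.989 between the GFP libraries, and 0.958 to 0.964 between the groups. GFP replicate 1 stood apart in 88 identifiers, where its level was at least 1 RPKM and over 4 times that of each of the 19 others. They summed to 30.6 to 38.9 RPKM in Zic1-deltaC libraries, against 1561 RPKM in GFP replicate 1 and 32.7 RPKM in GFP replicate 2. The labelled scale tissue could be checked by its scale keratins, which summed to 15461 to 17153 RPKM with Zic1-deltaC, against 25381 and 27048 RPKM with GFP and 211 and 317 RPKM in normal feather. The row of the Zic1 gene itself was not identified here, since the files give it no name, and any such row stayed among the unnamed identifiers.

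Zic1-deltaC scales carried less beta-keratin transcript than GFP scales. Keratins made up 19.5%, 18.0% and 16.7% of the summed RPKM in the Zic1-deltaC libraries, against 22.3% and 25.3% in the GFP libraries. Beta-keratins summed to 53841 ± 4826 RPKM in Zic1-deltaC scales (SD, n = 3) and 88312 ± 8311 RPKM in GFP scales (SD, n = 2), 1.64-fold lower with Zic1-deltaC, and the libraries did not overlap. Alpha-keratins differed by less than their spread, at 15587 ± 628 RPKM with Zic1-deltaC and 15057 ± 807 RPKM with GFP. A difference in 1 summed value was tested by an exact permutation test over the libraries, two-sided, and 3 libraries against 2 cannot give a p below 0.2. That was the p for the keratin share, for beta-keratins and for the claw, scale and keratinocyte sums, and it was 0.6 for alpha-keratins.

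**Figure D1:**
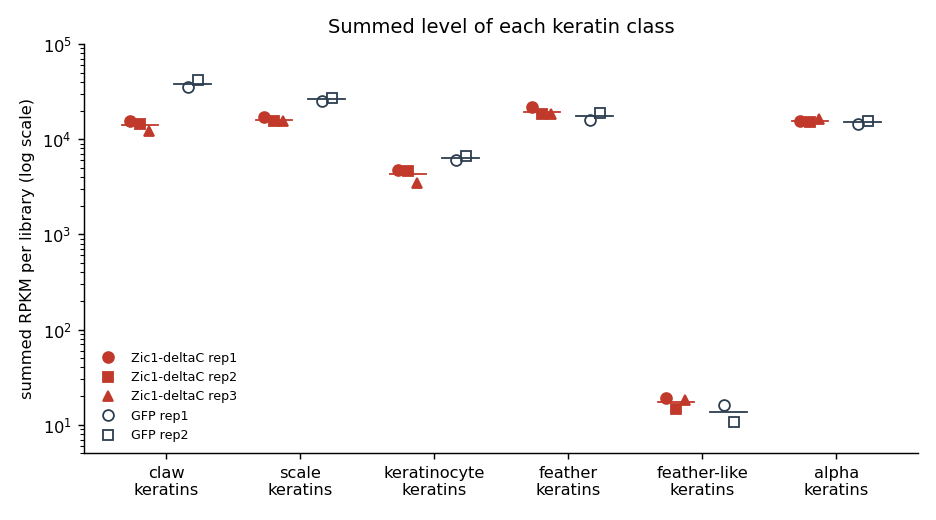
Summed RPKM of each keratin class per library on a log axis, with 3 Zic1-deltaC libraries (filled) left of 2 GFP libraries (open) and a line at each group's mean. Claw keratins stand at 12133 to 15493 RPKM with Zic1-deltaC, below 35110.4 and 41691 RPKM with GFP, while feather, feather-like and alpha sums of the groups overlap.

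Single genes were tested with limma on log2(RPKM + 1) over all 20 libraries, with the Benjamini-Hochberg adjustment over the 11863 genes that passed a filter on low values and a threshold of 0.05. A gene is said to have risen or fallen with Zic1-deltaC where its adjusted p was below that threshold. Of the 180 keratins 163 passed the filter, and 31 rose, 45 fell and 87 did not pass the test, against 24.7% of all genes called in either direction (14.8% higher and 9.90% lower). The libraries of both groups did not overlap in 56.2% of all genes tested. A change of all 12 claw keratins in the same direction stood beside feather keratins that went both ways and alpha-keratins that went both ways. In 42 of the 45 keratins that fell, GFP replicate 2 stood above GFP replicate 1. That order held in 58 of all 84 feather keratins tested, and its share over all genes was not counted. Without GFP replicate 2 fewer keratins were called lower, and fewer of all genes as well.

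Claw keratins, the most abundant beta-keratin family of the GFP scale by sum, all fell. Their sum was 15493, 14383 and 12133 RPKM in the Zic1-deltaC libraries, against 35110.4 and 41691 RPKM in the GFP libraries, 2.74-fold lower. Chr25_Claw9, the most abundant member, stood at 2815, 2515 and 2320 RPKM with Zic1-deltaC, against 6526 and 7966 RPKM with GFP. Every Zic1-deltaC library lay below both GFP libraries, and the log2 change was -1.50 (SE 0.27, limma adjusted p = 0.000684). Chr25_Claw10 had the largest fall, with 469, 452 and 424 RPKM in Zic1-deltaC libraries, against 1420 and 1659 RPKM in GFP libraries, a log2 change of -1.78 (SE 0.28, limma adjusted p = 0.000283). Chr25_Claw12 stood at 1601, 1420 and 1119 RPKM with Zic1-deltaC, against 4146 and 4644 RPKM with GFP (-1.68, SE 0.36, limma adjusted p = 0.00274). Chr25_Claw4 stood at 1756, 1708 and 1309 RPKM with Zic1-deltaC, against 3990 and 4855 RPKM with GFP (-1.48, SE 0.34, limma adjusted p = 0.00452, or 0.0597 without GFP replicate 2). The family moved as a block, with log2 changes between -1.78 and -1.16 and a median of -1.44, beside a median of 0.05 over all genes tested. No claw keratin was lost: the lowest, Chr25_Claw3, still held 314 to 364 RPKM in the Zic1-deltaC libraries. The count rested in part on 1 control, since fewer claw keratins were called lower without GFP replicate 2, as held for all genes. The ratio of claw sums, Zic1-deltaC over GFP, was 0.40 without that library and 0.36 with both controls.

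Scale keratins, the other main family of the control plate, were lower in sum, at 17153, 15461 and 15623 RPKM with Zic1-deltaC, against 25381 and 27048 RPKM with GFP, 1.63-fold lower. Of 18 in the files 16 were tested with limma, and 6 fell, 0 rose and 10 did not pass, with a median log2 change of -0.76. At limma's unadjusted p below 0.05, 10 were lower and 0 higher. The share of all genes at that looser threshold was not counted, and it includes at least the 9.90% called lower. The 6 that fell were minor members, together 22.1 to 41.3 RPKM in Zic1-deltaC libraries, against 82.9 and 118 RPKM in GFP libraries. Without GFP replicate 2 fewer scale keratins were called lower, as held for all genes. Chr25_scale7 changed most, with 4.10, 7.80 and 3.60 RPKM in Zic1-deltaC libraries, against 19.6 and 30.0 RPKM in GFP libraries (-2.10, SE 0.38, limma adjusted p = 0.000822). The 3 most abundant members in GFP scales did not pass the test. Their libraries did not overlap, which held for 56.2% of all genes tested. Chr25_scale15 stood at 6132, 5684 and 5388 RPKM with Zic1-deltaC, against 9190 and 9802 RPKM with GFP (log2 change -0.73, SE 0.32, limma adjusted p = 0.104). Chr25_scale14 had log2 change -0.69 (SE 0.33, limma adjusted p = 0.146) and Chr25_scale16 -0.78 (SE 0.34, limma adjusted p = 0.109). When limma was fitted to the 5 libraries of both groups alone, all 3 passed, with adjusted p = 0.0236 for Chr25_scale15, 0.0256 for Chr25_scale14 and 0.0112 for Chr25_scale16.

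Keratinocyte keratins summed to 4753, 4606 and 3479 RPKM with Zic1-deltaC, against 5978 and 6653 RPKM with GFP. Of 16 members 14 were tested, 6 fell by limma, 0 rose and 8 did not pass (median log2 change -0.66). Among all genes tested, 9.90% were called lower and 14.8% higher. At limma's unadjusted p below 0.05, 7 were lower and 0 higher, and here too the share of all genes was not counted. Chr25_Ktn11 stood at 354, 305 and 246 RPKM in Zic1-deltaC libraries, against 760 and 922 RPKM in GFP libraries (-1.48, SE 0.35, limma adjusted p = 0.00529, or 0.0658 without GFP replicate 2). Chr25_Ktn1 stood at 5.40, 6.50 and 4.80 RPKM with Zic1-deltaC, against 20.2 and 29.8 RPKM with GFP (-1.97, SE 0.31, limma adjusted p = 0.000248). The most abundant member, Chr25_Ktn3, did not pass, at 1460 ± 233 RPKM with Zic1-deltaC and 1643 ± 135 RPKM with GFP (limma adjusted p = 0.724). Chr25_Ktn15 did not pass either, at 1083, 1271 and 620 RPKM with Zic1-deltaC, against 1430 and 1789 RPKM with GFP (limma adjusted p = 0.0626, or 0.0318 without Zic1-deltaC replicate 2).

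Feather keratins went both ways, and the sum of the family did not separate the groups. The family held 21648, 18444 and 18297 RPKM in the Zic1-deltaC libraries, against 15950 and 18786 RPKM in the GFP libraries, and the groups overlapped (exact permutation p = 0.6). Of 97 members 84 were tested, of which 20 rose, 14 fell and 50 did not pass, with a median log2 change of 0.24. Among all genes tested, 14.8% were called higher and 9.90% lower. The 20 that rose, chosen by this comparison, summed to 5492 to 6778 RPKM with Zic1-deltaC, against 978 and 1028 RPKM with GFP. The 14 that fell summed to 619 to 786 RPKM with Zic1-deltaC, against 3649 and 5418 RPKM with GFP. By name, 6 that rose and 13 that fell lie on chromosome 27, where 44 were tested. Without GFP replicate 2 fewer feather keratins were called lower, as held for all genes.

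Chr27_FK1 had the largest rise of any keratin. It stood at 1368, 1116 and 1093 RPKM in Zic1-deltaC libraries, against 1.70 and 7.60 RPKM in GFP libraries, a log2 change of 7.94 (SE 1.16, limma adjusted p = 0.000123). It was a trace transcript in GFP scales, as in Sox2 scales (1.60 and 0.40 RPKM). RA scales held 2171 and 2185 RPKM, Sox18 scales 1291 to 2021 RPKM and beta-catenin scales 197 and 201 RPKM. The normal feather libraries differed, at 456 and 3.30 RPKM. Chr27_FK2, the neighbour by number, named here after its values were seen, did not pass, at 1068, 957 and 835 RPKM with Zic1-deltaC, against 669 and 833 RPKM with GFP (log2 change 0.34, SE 0.56, limma adjusted p = 0.702). ChrUn27_FK11 stood at 949, 797 and 706 RPKM with Zic1-deltaC, against 71.9 and 120 RPKM with GFP (3.11, SE 0.51, limma adjusted p = 0.000325). Both Chr27_FK1 and ChrUn27_FK11 were abundant in every Zic1-deltaC library, and no library of one group reached the other.

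Among the 13 feather keratins named for chromosome 25, 4 rose and 0 fell by limma, against 14.8% of all genes called higher and 9.90% lower. At limma's unadjusted p below 0.05, 5 were higher and 0 lower. The share of all genes at that looser threshold was not counted, and it includes at least those called. Chr25_FK9 stood at 328, 283 and 332 RPKM with Zic1-deltaC, against 35.8 and 18.2 RPKM with GFP (log2 change 3.56, SE 0.52, limma adjusted p = 0.000123). Chr25_FK8 stood at 164, 142 and 142 RPKM with Zic1-deltaC, against 27.8 and 21.5 RPKM with GFP (2.56, SE 0.43, limma adjusted p = 0.00045). The other 2 of the 4, named here after their values were seen, were more abundant. Chr25_FK13 stood at 1277, 969 and 1013 RPKM with Zic1-deltaC, against 354 and 254 RPKM with GFP (limma adjusted p = 0.00169). Chr25_FK2 stood at 1163, 860 and 1010 RPKM with Zic1-deltaC, against 309 and 269 RPKM with GFP (limma adjusted p = 0.00238). The most abundant feather keratin of the GFP scale, Chr25_FK11, did not pass, at 2471 ± 279 RPKM with Zic1-deltaC (SD, n = 3) and 2384 ± 147 RPKM with GFP (SD, n = 2). Chr1_FK1, the next in GFP scales, did not pass either, at 1131 ± 107 RPKM with Zic1-deltaC and 1505 ± 163 RPKM with GFP (limma adjusted p = 0.477).

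Of the others that rose on chromosome 27, Chr27_FK5 and Chr27_FK23, named here after their values were seen, were abundant. Chr27_FK5 stood at 622, 536 and 443 RPKM with Zic1-deltaC, against 111 and 118 RPKM with GFP (limma adjusted p = 0.00952). Chr27_FK23 stood at 484, 502 and 385 RPKM with Zic1-deltaC, against 74.9 and 121 RPKM with GFP (limma adjusted p = 0.00337). The rises that remain were of scarcer transcripts. ChrUn27_FK7 stood at 52.4, 41.2 and 81.5 RPKM with Zic1-deltaC, against 3.30 and 2.90 RPKM with GFP (log2 change 3.80, SE 0.61, limma adjusted p = 0.000297). Chr27_FK46 stood at 71.7, 56.0 and 121 RPKM with Zic1-deltaC, against 5.80 and 8.40 RPKM with GFP (3.32, SE 0.62, limma adjusted p = 0.00108). Chr27_FK45 had the same value as Chr27_FK46 in 4 of the 5 libraries, so how reads were divided between near-identical copies, which is not given in the sources used here, bears on both. ChrUn27_FK2 stood at 14.2, 16.4 and 13.7 RPKM with Zic1-deltaC and was listed at 0 in both GFP libraries (limma adjusted p = 9.17e-05). Chr27_FK47 stood at 4.40, 4.80 and 5.50 RPKM with Zic1-deltaC and was also listed at 0 in both GFP libraries (limma adjusted p = 0.000104). All 4 feather keratins named for unplaced sequence of chromosome 10 rose, as did 2 of the 3 named for chromosome 10. The share called higher over all genes was 14.8%. ChrUn10_FK2 led them, at 58.3, 30.7 and 80.5 RPKM with Zic1-deltaC, against 5.30 and 5.60 RPKM with GFP (3.05, SE 0.38, limma adjusted p = 2.51e-05). ChrUn10_FK4 stood at 16.5, 9.0 and 27.8 RPKM with Zic1-deltaC, against 0.80 and 1.40 RPKM with GFP. Chr7_FK1 stood at 5.10, 4.30 and 12.4 RPKM with Zic1-deltaC, against 0.50 and 0.10 RPKM with GFP. In these small chromosome 7 and 10 genes replicate 3 was the highest of the Zic1-deltaC libraries.

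The feather keratins that fell sat in chromosome 27 by name, bar ChrUn27_FK1 of its unplaced sequence. Chr27_FK13 changed most, with 0.30, 0.50 and 0.20 RPKM in Zic1-deltaC libraries, against 869 and 1204 RPKM in GFP libraries, a log2 change of -9.59 (SE 0.34, limma adjusted p = 1.4e-12). It was among the 3 most abundant feather keratins of GFP scales and near absent with Zic1-deltaC. Chr27_FK12 stood at 15.1, 23.6 and 13.5 RPKM with Zic1-deltaC, against 476 and 677 RPKM with GFP (-4.99, SE 0.56, limma adjusted p = 9.1e-06). Chr27_FK21 stood at 5.30, 7.90 and 9.40 RPKM with Zic1-deltaC, against 127 and 268 RPKM with GFP (-4.47, SE 0.37, limma adjusted p = 3.24e-07). Chr27_FK34 stood at 8.40, 7.80 and 11.1 RPKM with Zic1-deltaC, against 92.1 and 199 RPKM with GFP (-3.77, SE 0.53, limma adjusted p = 8.74e-05). In each of these genes the groups were far apart. Chr27_FK16 fell too (-3.70, SE 0.44, limma adjusted p = 1.68e-05), as did Chr27_FK32 (-2.57, SE 0.36, limma adjusted p = 9.01e-05). Chr27_FK9 stood at 131, 126 and 119 RPKM with Zic1-deltaC, against 548 and 715 RPKM with GFP (-2.31, SE 0.40, limma adjusted p = 0.000629). The other 3 named falls no longer passed without GFP replicate 2, which left 1 control, while their log2 changes stayed below -1. Chr27_FK15 had a log2 change of -2.38 (limma adjusted p = 0.00304), or -2.10 without that library (0.0506). Chr27_FK14 had -2.01 (limma adjusted p = 0.0108), or -1.56 without it (0.151). Chr27_FK3 had -1.64 (limma adjusted p = 0.00462), or -1.30 without it (0.088).

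**Figure D2:**
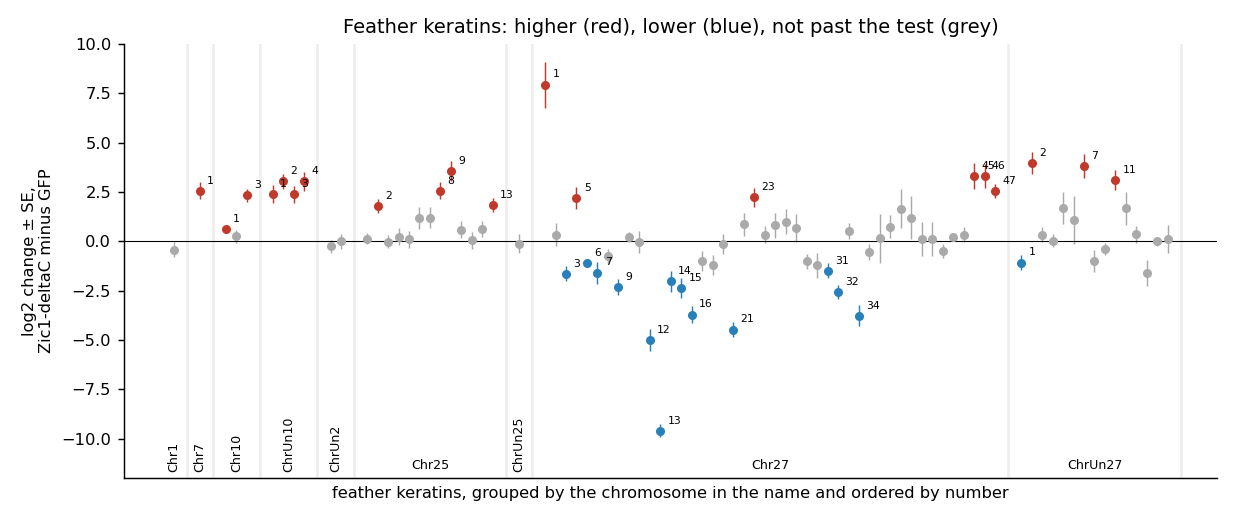
Log2 change with its SE (y axis, Zic1-deltaC minus GFP) of the 84 feather keratins tested, grouped along the x axis by the chromosome in the name and numbered where the test was passed. Rises (red) spread over chromosomes 7, 10, 25 and 27, while the falls (blue) all carry chromosome 27 or its unplaced sequence in the name, and Chr27_FK1 (7.94) and Chr27_FK13 (-9.59) are the extremes.

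Zic1-deltaC replicate 3 stood apart in 9 feather keratins, in which it was at least 1 RPKM and over 4 times both other Zic1-deltaC libraries. They summed to 4.80, 6.60 and 214 RPKM in Zic1-deltaC replicates 1, 2 and 3, against 6.60 and 14.9 RPKM in GFP libraries and 44541 and 49587 RPKM in normal feather. Of the 9, 0 passed limma's test, also at an unadjusted p below 0.05, and replicates 1 and 2 had 0 keratins of this kind. Replicate 3 was the highest Zic1-deltaC library in 19 of the 31 keratins that rose and in 4 of the 45 that fell. The share over all genes was not counted. What sets it apart was not tested.

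The 3 feather-like keratins, showed no difference that passed limma's test, and 0 reached an unadjusted p below 0.05. Their sum was 19.0, 14.7 and 18.0 RPKM in the Zic1-deltaC libraries, against 16.3 and 10.8 RPKM in the GFP libraries (exact permutation p = 0.4). Chr25_FL1 had a log2 change of 0.46 (SE 0.33, limma adjusted p = 0.33), Chr25_FL2 of 0.12 (SE 0.39, limma adjusted p = 0.86) and Chr25_FL3 of 0.25 (SE 0.37, limma adjusted p = 0.665).

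Alpha-keratins, the filament proteins of the epidermis, moved one by one. Of 33 tested, 11 rose, 7 fell and 15 did not pass, against 14.8% of all genes called higher and 9.90% lower. Their median log2 change was 0.03, and it was -0.02 when libraries were scaled by the median of gene ratios. KRT84, which belongs to the hair keratins in mammals, rose most, with 60.5, 39.4 and 59.9 RPKM in Zic1-deltaC libraries, against 3.50 and 2.30 RPKM in GFP libraries, a log2 change of 3.79 (SE 0.32, limma adjusted p = 4.04e-07). KRT13C, a copy of KRT13, in mammals a keratin of moist stratified epithelia such as the mouth, stood at 295, 230.0 and 315 RPKM with Zic1-deltaC, against 42.2 and 21.4 RPKM with GFP (3.16, SE 0.25, limma adjusted p = 1.69e-07). In the libraries of the other groups KRT13C stood between 129 and 662 RPKM. Its sister copy KRT13B went the other way, with 434, 346 and 258 RPKM in Zic1-deltaC libraries, against 1115 and 1674 RPKM in GFP libraries (-2.01, SE 0.21, limma adjusted p = 4.07e-06). Between them, KRT13B was the higher copy in Zic1-deltaC replicates 1 and 2 and in both GFP libraries, and KRT13C was the higher in Zic1-deltaC replicate 3. Another copy, KRT13A, did not pass (-0.31, limma adjusted p = 0.424). It stood at 923, 719 and 1016 RPKM with Zic1-deltaC, against 951 and 1242 RPKM with GFP. That was above both other copies in every Zic1-deltaC library, and below KRT13B in both GFP libraries. KRT19, in mammals a keratin of simple epithelia and of some basal cells, stood at 28.8, 24.2 and 27.5 RPKM with Zic1-deltaC, against 4.0 and 2.90 RPKM with GFP (2.65, SE 0.35, limma adjusted p = 5.29e-05).

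Keratins that mark epidermal layers did not move together. KRT10, of the layers above the basal one, stood at 4280, 4456 and 4882 RPKM with Zic1-deltaC, against 2670 and 2217 RPKM with GFP (log2 change 0.90, SE 0.20, limma adjusted p = 0.00419, or 0.0731 without GFP replicate 2). Its partner KRT1 stood at 254, 211 and 260 RPKM with Zic1-deltaC, against 163 and 133 RPKM with GFP (0.71, limma adjusted p = 0.0452). The basal keratin KRT14 stood at 543, 546 and 523 RPKM with Zic1-deltaC, against 1022 and 1188 RPKM with GFP (-1.03, SE 0.15, limma adjusted p = 0.000106). In KRT14 both GFP libraries stood above every other library of the series. KRT14 with Zic1-deltaC did not pass against Grem1 or Spry2 scales (limma adjusted p = 0.256 and 0.38). KRT5, the partner of KRT14, did not pass against GFP (-0.29, limma adjusted p = 0.18), nor did KRT15, another basal keratin (0.27, limma adjusted p = 0.219). Of these 5 markers 3 passed the test, 2 upward and 1 downward, against 24.7% of all genes called in either direction. The marker list also held KRT75, whose copies KRT75A and KRT75B are outside this count. KRT75A fell, and KRT75B did not pass (limma adjusted p = 0.149). The keratins of activated epidermis KRT6A and KRT6C, abundant in GFP scales, did not pass (limma adjusted p = 0.901 and 0.527). Both passed upward after quantile normalization, with adjusted p = 0.0161 and 0.0152.

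Other alpha-keratins that passed are named here after their values were seen. KRT16A, whose mammalian relative is a keratin of activated epidermis, stood at 30.2, 26.2 and 65.9 RPKM with Zic1-deltaC, against 11 and 8.70 RPKM with GFP (limma adjusted p = 0.00146). KRT73 also rose (log2 change 1.73, limma adjusted p = 0.00233). KRT17, another keratin of activated epidermis, fell (-1.13, limma adjusted p = 0.000294), as did KRT75A, a relative of the KRT75 of feather and hair follicle (-1.58, limma adjusted p = 4.59e-06). The remaining rises were KRT9 (0.70, limma adjusted p = 0.00498), KRT7, KRT16B and KRT20. The remaining falls were KRT74 (-1.26, limma adjusted p = 0.00641), KRT4 and KRT12.

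**Figure D3:**
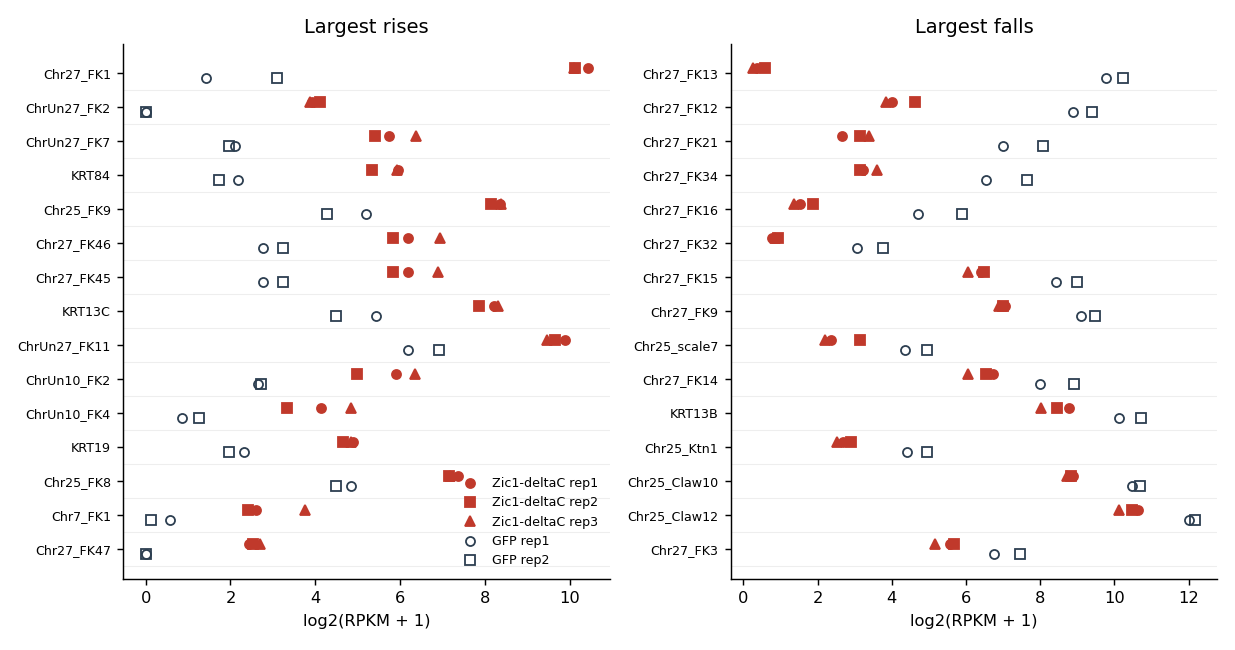
Log2(RPKM + 1) on the x axis of the 15 keratins with the largest rise (left) and the 15 with the largest fall (right), per library, with 3 Zic1-deltaC libraries (filled, upper row of each gene) above 2 GFP libraries (open). The libraries of both groups stay apart in all 30 by the rule that chose them, and Chr27_FK1 and Chr27_FK13 show the widest gaps.

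Across all 11863 genes tested, 1760 rose and 1175 fell, so that 60.0% of calls were upward. Scaling libraries by the median of gene ratios, with a log2 ratio of the groups' size factors of 0.058, gave 1665 rises and 1657 falls, 50.1% upward. Among the 11700 unnamed identifiers 1729 rose and 1130 fell. Most changes were small: the 5th and 95th percentiles of their log2 change were -0.48 and 0.56, and 80 rises and 113 falls reached 1 on the log2 scale. Of the unnamed identifiers 1 rose by 3 or more and 14 fell by 3 or more. Without GFP replicate 2, limma called 746 genes higher and 525 lower.

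The largest rise of any gene was ENSGALG00000006811, at 789, 923 and 993 RPKM in Zic1-deltaC libraries, against 0.20 and 0.10 RPKM in GFP libraries, a log2 change of 9.61 (SE 0.14, limma adjusted p = 5.45e-18). In none of the 17 other libraries of the series did it exceed 1.10 RPKM. Which gene it is was not identified here, and whether its reads came from the virus or from the embryo was not tested. ENSGALG00000013072 stood at 106, 105 and 143 RPKM with Zic1-deltaC, against 35.9 and 29.8 RPKM with GFP (1.80, SE 0.17, limma adjusted p = 1.25e-06). ENSGALG00000022674 was listed at 0 in all 3 Zic1-deltaC libraries, against 771 and 829 RPKM in GFP libraries (limma adjusted p = 3e-14). ENSGALG00000022679 was also listed at 0 in all 3, against 268 and 274 RPKM in GFP libraries (limma adjusted p = 2.92e-20).

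The 2 identifiers listed at 0 belong to 25 that were high in every GFP, RA, Spry2 and beta-catenin library, over 4 times every library of the other groups. All 25 fell with Zic1-deltaC, a direction that the way they were picked fixes. They summed to 0.90, 1.30 and 1.20 RPKM with Zic1-deltaC, against 1589 and 1649 RPKM with GFP. They held 11 of the 14 unnamed falls of 3 or more. These identifiers were picked by search over the groups, so their count is a description, and what divides the groups in them was not tested. Of the 88 identifiers in which GFP replicate 1 stood apart, 17 were tested and 10 were called lower with Zic1-deltaC. The way they were picked, high in a GFP library, favours that direction. Without both sets, an alternative chosen after seeing the data, 1753 genes rose and 1136 fell, of which 31 and 45 were keratins.

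**Figure D4:**
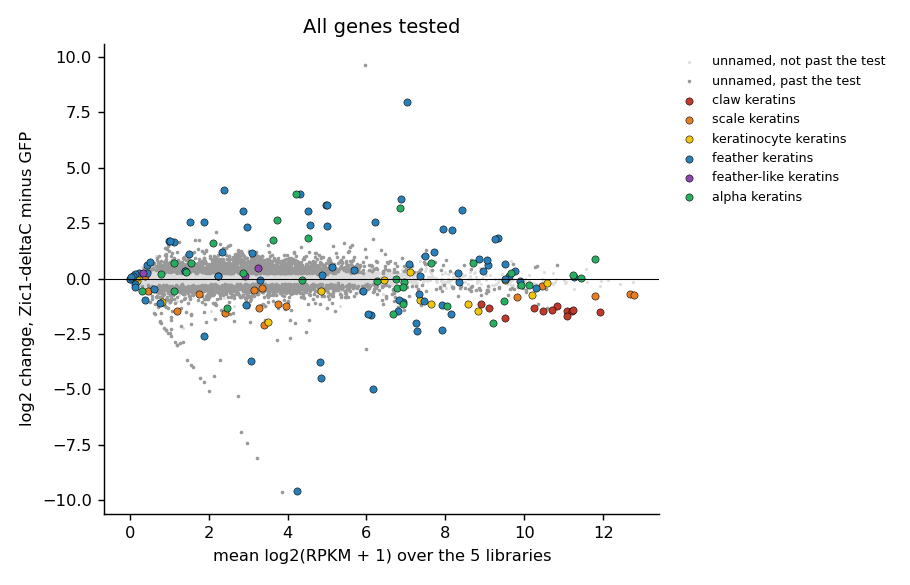
Log2 change (y axis, Zic1-deltaC minus GFP) against the mean log2(RPKM + 1) of the 5 libraries (x axis) for the 11863 genes tested, with unnamed identifiers in grey and keratin classes in colour. Claw keratins form a tight cluster below 0 at high level, between -1.78 and -1.16, feather keratins scatter to both sides, and 1 unnamed identifier stands alone at 9.61.

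Scales with Grem1, which binds and blocks bone morphogenetic proteins outside the cell, and with Spry2, an inhibitor of signalling by fibroblast growth factors, were also set against Zic1-deltaC scales. Both comparisons share the Zic1-deltaC libraries with the comparison against GFP, and each has 2 libraries of its own. Against Grem1, 40.3% of all genes were called (26.4% higher and 14.0% lower with Zic1-deltaC), and 39 keratins were higher and 43 lower. Against Spry2, 34.0% were called (13.3% higher and 20.7% lower), and 56 keratins were higher and 45 lower. Direction over all genes depended on scaling: 3127 higher and 1659 lower against Grem1 became 2388 and 2661 with median-ratio scaling, and 1576 and 2457 against Spry2 became 2151 and 2102. The log2 ratio of the groups' size factors was 0.114 for Grem1 and -0.066 for Spry2.

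Claw keratins stood higher with Zic1-deltaC than with Spry2. All 12 were higher with Zic1-deltaC than with Spry2, with log2 differences of 1.71 to 3.40 and a median of 2.31, and the same held with median-ratio scaling. Chr25_Claw9 stood at 2815, 2515 and 2320 RPKM with Zic1-deltaC, against 352 and 825 RPKM with Spry2 (2.23, SE 0.27, limma adjusted p = 9.23e-06). Against Grem1 3 were lower and 9 did not pass. The 3, named here after their values were seen, were Chr25_Claw11 (log2 difference -2.47, SE 0.31, limma adjusted p = 1.68e-05), Chr25_Claw2 (-1.11, limma adjusted p = 0.0106) and Chr25_Claw6 (-0.88, limma adjusted p = 0.0163). Scale keratins were lower than with Grem1 in 10 of 16 and higher in 1, Chr25_scale11 (1.03, limma adjusted p = 0.0373), which no longer passed with median-ratio scaling. Against Spry2 6 were higher and 1 lower, Chr25_scale10 (-2.60, limma adjusted p = 6.73e-08). Keratinocyte keratins gave 2 higher and 5 lower of 14 against Grem1, and 5 higher and 4 lower against Spry2. Chr25_Ktn12 and Chr25_Ktn13 were higher and Chr25_Ktn2, Chr25_Ktn4 and Chr25_Ktn7 lower in both. These scale and keratinocyte keratins are also named after their values were seen.

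Feather keratins were higher with Zic1-deltaC than with Grem1 in 32 of 84 and lower in 3 (Chr27_FK12, Chr27_FK30 and Chr27_FK37), and against Spry2 25 were higher and 23 lower. How reads were divided between near-identical copies bears on these counts. Chr27_FK45 and Chr27_FK46 both stood at 71.7 RPKM in Zic1-deltaC replicate 1. They stood at 156 and 23.0 RPKM in Grem1 replicate 1, and at 865 and 167 RPKM in Spry2 replicate 1. Against Grem1, Chr27_FK46 was higher (2.02) and Chr27_FK45 did not pass (-0.45). Chr27_FK45 and Chr27_FK46 were also unequal in beta-catenin replicate 1 (1490 and 337 RPKM). In feather, RA, Sox18, Sox2 and GFP libraries they were near equal, as at 31242 and 31244 RPKM in feather replicate 1. ChrUn27_FK12 and ChrUn27_FK5 were near equal in feather replicate 1 (2571 and 2574 RPKM) and unequal in Spry2 replicate 1 (101 and 13.8 RPKM). Chr27_FK40 and Chr27_FK41 stayed closer there (158 and 141 RPKM). The ratio of such copies thus differed between groups, and its cause was not tested. ChrUn27_FK11 was higher in both, with log2 differences of 3.08 (SE 0.51, limma adjusted p = 0.000197) against Grem1 and 4.20 (SE 0.51, limma adjusted p = 1.05e-05) against Spry2. Chr27_FK1 stood at 331 and 577 RPKM with Grem1 and 77.6 and 249 RPKM with Spry2, and neither difference passed (limma adjusted p = 0.345 and 0.0505). Chr27_FK13, so low with Zic1-deltaC, was also low with Grem1 (0.80 and 0.50 RPKM) and Spry2 (0.60 and 2.00 RPKM). All 3 feather-like keratins were lower with Zic1-deltaC in both comparisons. Chr25_FL2 stood at 8.80, 5.80 and 6.40 RPKM with Zic1-deltaC, against 782 and 371 RPKM with Grem1 and 42.8 and 75.5 RPKM with Spry2 (log2 differences -6.09 and -2.87, limma adjusted p = 9.31e-09 and 3.2e-05).

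Alpha-keratins were mostly lower than with Grem1, 19 against 3 higher (KRT6A, KRT84 and KRT9), or 21 against 2 with median-ratio scaling, and 14 were lower and 8 higher than with Spry2. KRT84 was higher in both, at a log2 difference of 1.65 against Grem1 (SE 0.32, limma adjusted p = 0.000726) and 1.86 against Spry2 (SE 0.32, limma adjusted p = 0.00032). KRT6A was higher as well (1.02 against Grem1, limma adjusted p = 9.99e-05, and 0.76 against Spry2, limma adjusted p = 0.00138). KRT10 did not pass against either (limma adjusted p = 0.14 and 0.0703). Neither did KRT13C, with log2 differences of -0.37 against Grem1 and -0.29 against Spry2 (limma adjusted p = 0.256 and 0.397). KRT19 was higher than with Spry2 (2.31, limma adjusted p = 0.00011) and did not pass against Grem1 (-0.67, limma adjusted p = 0.144). Of the unnamed identifiers, a set of 25 listed at 0 in every library but those of beta-catenin, Grem1 and Spry2 was found by search over the groups. All 25 were called lower with Zic1-deltaC against both, which the way they were picked fixes. What divides these 3 groups from the others was not tested. In the comparisons with Grem1 and Spry2 it cannot be told apart from the constructs, for keratins and for all genes.

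**Figure D5:**
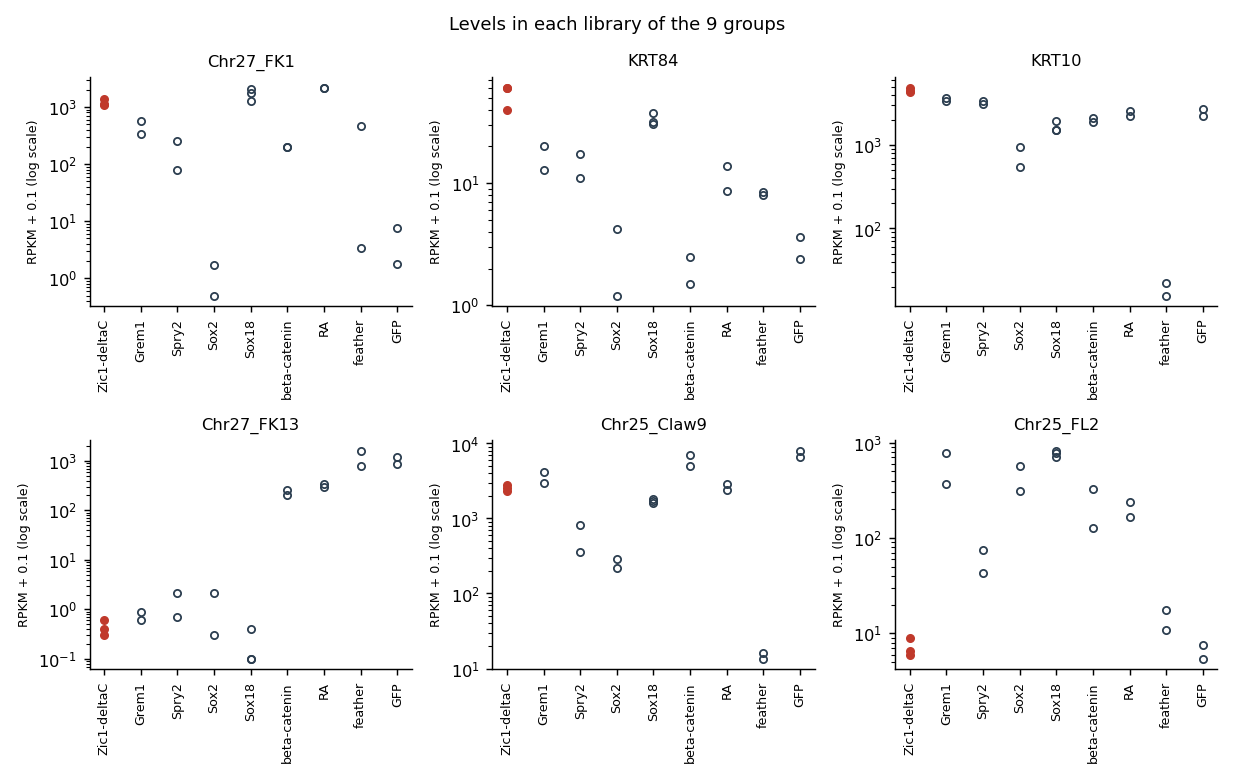
RPKM plus 0.1 on a log axis of 6 keratins in each library (points) of the 9 groups, with Zic1-deltaC at the left in red and GFP at the right. Chr27_FK13 is near 0 with Zic1-deltaC, Grem1, Spry2, Sox2 and Sox18 and above 800 RPKM in both GFP libraries, and KRT84 reaches its highest values, 39.4 to 60.5 RPKM, with Zic1-deltaC.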

How the data were processed

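Total RNA of embryonic scale and feather was sequenced from TruSeq V2 libraries, per the labels' protocols. The authors deposited RPKM (reads scaled to gene length and library size) given to 1 decimal for 16290 genes in 20 libraries. TopHat2, Partek and the galGal4 build are named in the submitters' processing notes, and the counting rule for near-identical copies is not given in the sources used here. A second deposited RPKM table repeats the 180 keratins with identical values. Depth is unknown, so no counting interval is given, and RPKM changes of low genes are understated on the log2 scale.

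Genes with at least 1 RPKM in at least 2 of the 20 libraries were fitted with limma 3.58.1 (R 4.3.3, trend on log2(RPKM + 1), pseudocount 1) over 9 groups, so that all groups share 1 estimate of spread, with Benjamini-Hochberg adjustment over 11863 genes. The scripts were tested on simulated data. Sums were compared with an exact two-sided permutation test (scipy 1.17.1).

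Keratins named are up to 15 rises and 15 falls past the threshold that do not overlap and reach a mean of 1 RPKM in a group, and the 3 most abundant of each class in GFP scales. Unnamed identifiers are the 2 largest rises and 2 largest falls that reach a mean of 10 RPKM. Members and lists were chosen with earlier results of these data known. Gene lists of unnamed genes were not assessed, since the identifiers were not paired with symbols here. Of the 7 epidermal layer markers listed, 5 matched by exact name, and KRT75 was present only as KRT75A and KRT75B. Alternatives were another pseudocount and filter, median-ratio scaling, quantile normalization, the 5 libraries alone, a replicate block and each library left out.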

Additional observations from a re-analysis of the deposited data

How the results depend on the processing

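Counts over all genes moved more than single keratins. Keeping genes with a mean of at least 5 RPKM left 1083 higher against GFP, 1654 higher and 1076 lower against Grem1, and 886 higher and 1621 lower against Spry2, from fewer genes tested. Median-ratio scaling called 2661 lower against Grem1, and quantile normalization called 2496 higher against Spry2. Leaving out 1 library at a time gave 746 to 1302 higher and 525 to 978 lower against GFP, 972 to 1438 lower against Grem1, and 1013 to 1300 higher and 1494 to 2166 lower against Spry2. Keratins called against GFP were 26 to 30 higher and 26 to 43 lower, the lowest count of falls being that without GFP replicate 2. Where a group was left with 1 library, it was assumed to vary like the other groups. The ratio of alpha-keratin sums, 1.04, became 0.994 with median-ratio scaling and 0.997 to 1.08 with libraries left out. Genes far from the threshold changed sign without being called: Chr25_FK11 was -0.011 with median-ratio scaling and -0.044 to 0.11 with libraries left out. KRT6A was -0.023 with median-ratio scaling, -0.059 with the replicate block and -0.045 to 0.080 with libraries left out. Chr25_Ktn3 was 0.17 after quantile normalization, and Chr25_FL2 was -0.088 to 0.33 with libraries left out. The cause of these changes was not tested. The replicate block called 1323 genes higher and 1080 lower against GFP, with 29 keratins higher and 39 lower. Deviations of same-numbered libraries from their group means correlated at 0.046 across genes in both numbers. The deviations of the 2 GFP libraries mirror each other, so these are not 2 separate checks. Whether same-numbered libraries share a batch cannot be told from them. The 5 libraries alone gave 2244 higher and 1262 lower, with 37 keratins higher and 58 lower. Values are RPKM to 1 decimal with no read totals, which limits what can be said of genes near 0.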

Other observations

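Over the 11863 genes tested, the mean log2(RPKM + 1) of Zic1-deltaC scales was closest to that of GFP scales by Pearson's r across genes, at 0.966, followed by 0.956 for Grem1 and 0.948 for Spry2, and lowest for normal feather at 0.772. Genes are not independent replicates, and the values are a description. Among the 8 unnamed identifiers high in every Zic1-deltaC library and at most 0.2 RPKM in both GFP libraries, 1 accounts for nearly the whole sum, which was 800.3, 935 and 1005 RPKM with Zic1-deltaC, against 1.10 and 1.20 RPKM with GFP.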
